A study of Rattus norvegicus with 2 samples.

Results

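Acss2 and 7 further enzymes that make, carry or condense acetyl units were examined in natural killer (NK) cells from rat spleen, lymphocytes that kill infected or altered cells. Acss2 was chosen by its signal difference on these same arrays, and Acss1, Acly, Aacs, Crat, Pdha1, Dlat and Acat1 were listed beside it for their part in acetyl-CoA supply. All probe sets that carried 1 of these 8 gene symbols were used, which gave 9 of 31099 probe sets and 7 of 14217 genes. No probe set carried the symbol of Dlat, which was not analysed here. NKR-P1B+ NK cells and Ly49s3+ NK cells were compared, each population sorted as positive for 1 of these receptors and negative for the other. NKR-P1B is an inhibitory lectin-like receptor and Ly49s3 an activating one. Cells of both populations came from spleens of PVG.7b rats aged 8 to 12 weeks, had been depleted with antibodies to CD5, CD45RA, CD68, the immunoglobulin kappa chain and the alpha-beta T cell receptor, carried NKR-P1A, lacked CD3 and were over 90% pure per the labels. The series used 9 rats, and the sources used here do not state whether their RNA was pooled. Each population was measured on 1 expression array, so no value below has a replicate, no test was possible and every difference describes these arrays only.

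Acetyl-CoA is the carrier of acetyl units in the cell and does not cross the inner mitochondrial membrane. In mitochondria it is made from pyruvate by the pyruvate dehydrogenase complex, from fatty acids by beta oxidation, from ketone bodies and from acetate. In the cytosol and nucleus it is made from exported citrate by ATP citrate lyase or from acetate by acetyl-CoA synthetase 2, and is used there for fatty acid and sterol synthesis and for the acetylation of histones and other proteins. Activated lymphocytes draw on these routes as they grow and as they alter their chromatin.

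Acss2 had by far the largest difference of these genes. The gene encodes the acetyl-CoA synthetase of cytosol and nucleus, which joins free acetate to coenzyme A. Its single probe set (1375944_at) had a signal, in arbitrary units on a linear scale, of 563 in NKR-P1B+ cells and 76.1 in Ly49s3+ cells. The signal was thus 7.40-fold higher in NKR-P1B+ cells, a log2 difference of 2.89. Both signals were above the floor of 20.4, the median of all signals of both arrays, below which signals were set to the floor. Among 9114 genes above the floor on at least 1 array, only Klrb1b, which encodes the NKR-P1B used for the sort, had a larger difference in this direction (1399 in NKR-P1B+ cells against 29.4, 47.6-fold). As Acss2 was picked for this difference, its size and rank are a description. In RNA from pooled cells, fewer cells with the transcript and less transcript per cell cannot be told apart.

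The spread that could be measured was that between probe sets of 1 gene. Across 504 genes with a mean signal from 200 to 500, the range that holds Acss2, the SD of the log2 difference per probe set was 0.215. That spread holds no variation between rats, sorts or arrays, and no other probe set of Acss2 was there to repeat its value.

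**Figure D1:**
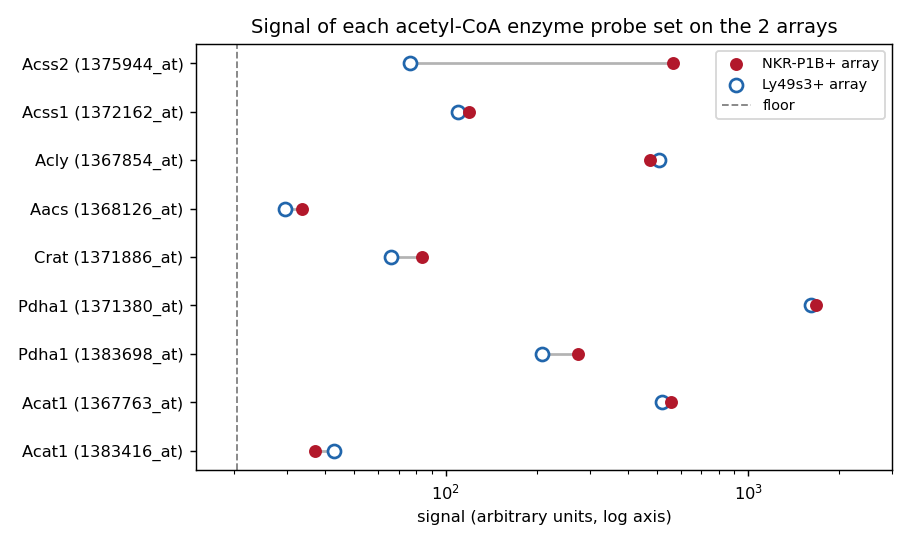
Signal of each of the 9 probe sets (arbitrary units, log axis) in NKR-P1B+ cells (filled red) and Ly49s3+ cells (open blue), with the floor of 20.4 as a dashed line. Acss2 lies at 563 and 76.1, whereas both arrays lie close together for the other 8 probe sets, none of which was more than 1.31-fold apart.

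Acss1, the mitochondrial acetyl-CoA synthetase, uses the same substrate as Acss2 in the other compartment. Its probe set (1372162_at) had 119 in NKR-P1B+ cells and 110 in Ly49s3+ cells. The log2 difference was 0.12, within the SD of 0.25 per probe set at this signal. The acetate-activating pair thus differed on these arrays by 2.89 for one member and 0.12 for the other.

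Acly encodes ATP citrate lyase, the other main source of cytosolic acetyl-CoA. Its probe set (1367854_at) had 472 in NKR-P1B+ cells and 506 in Ly49s3+ cells, a log2 difference of −0.10 within the SD of 0.215. Acly was the only member whose representing probe set was lower in NKR-P1B+ cells, and with the arrays scaled to their poly-A spikes it was 0.43, against a median of 0.50 over all genes under that scaling. Aacs encodes a cytosolic ligase that activates acetoacetate for lipid synthesis. Its probe set (1368126_at) had 33.5 in NKR-P1B+ cells and 29.5 in Ly49s3+ cells, a log2 difference of 0.18 at signals near the floor, where the SD per probe set was 0.378.

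The promoters of Acss2 and Acly are shown because these genes supply the same cytosolic pool and differed so unequally. The sequences are those of RefSeq on GRCr8, read 5′ to 3′ on the strand of the gene, from 250 bases before to 50 bases after its start. That of Acss2 lies at chr3:164464453-164464752 on the plus strand and that of Acly at chr10:85963582-85963881 on the minus strand. Capitals mark the letters CCAAT and GGGCGG on either strand, the CCAAT and GC boxes of many promoters.
Acss2: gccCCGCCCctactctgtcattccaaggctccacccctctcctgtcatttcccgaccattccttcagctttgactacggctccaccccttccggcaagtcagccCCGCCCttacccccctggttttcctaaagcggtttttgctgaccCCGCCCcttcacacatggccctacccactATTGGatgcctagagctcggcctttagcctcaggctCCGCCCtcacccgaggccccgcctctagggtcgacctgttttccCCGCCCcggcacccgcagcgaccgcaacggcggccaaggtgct
Acly: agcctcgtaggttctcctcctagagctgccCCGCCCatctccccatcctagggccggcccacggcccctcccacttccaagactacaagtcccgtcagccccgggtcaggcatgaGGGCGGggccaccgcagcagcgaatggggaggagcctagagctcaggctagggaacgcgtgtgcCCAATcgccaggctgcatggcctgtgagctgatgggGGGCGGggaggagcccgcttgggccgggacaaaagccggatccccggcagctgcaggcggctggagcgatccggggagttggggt
Each window held 1 CCAAT match, whose first base lay 73 bases before the start in Acss2 and 71 bases before it in Acly, on opposite strands. The Acss2 window held 5 GC boxes and the Acly window 3. Of 33469 promoter windows of this length, 37.5% held CCAAT and 33.1% held GGGCGG on either strand. The sterol regulatory element letters TCACNCCAC, present in 1.12% of the windows, and the E-box CACGTG, present in 6.42%, were not in the windows of the 7 members that had a promoter sequence, Dlat included and Acss1 not. Of these 7, Acss2, Acly and Acat1 held CCAAT and Aacs held none of the 4 motifs. A match is a run of letters and no measured site.

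Pdha1 encodes the alpha subunit of the first enzyme of the pyruvate dehydrogenase complex and was covered by a pair of probe sets. The first (1371380_at) had 1673 in NKR-P1B+ cells and 1609 in Ly49s3+ cells, a log2 difference of 0.06. The second (1383698_at) had 273 in NKR-P1B+ cells and 208 in Ly49s3+ cells, a log2 difference of 0.39 against an SD of 0.215. Both were higher in NKR-P1B+ cells, and they disagreed with each other by 0.34 on the log2 scale.

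Crat encodes carnitine acetyltransferase, which moves acetyl units between coenzyme A and carnitine. Its probe set (1371886_at) had 83.4 in NKR-P1B+ cells and 65.8 in Ly49s3+ cells. That 1.27-fold difference (log2 0.34) was the largest after Acss2 among the probe sets that represent a member, and lay just beyond the SD of 0.319 at this signal. Acat1 encodes the mitochondrial acetoacetyl-CoA thiolase of ketone body and isoleucine breakdown. Its first probe set (1367763_at) had 555 in NKR-P1B+ cells and 520 in Ly49s3+ cells (log2 difference 0.09), and its second (1383416_at) had 37.1 and 42.8 (log2 difference −0.21). The probe sets of Acat1 thus had opposite signs, each within the SD of its signal range.

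Over the 7 measured members, 6 were higher in NKR-P1B+ cells and 1 in Ly49s3+ cells, with a median log2 difference of 0.12, against −0.02 over all 9114 measured genes. Without Acss2 the median of the other 6 was 0.10. Of the 8 probe sets other than that of Acss2, 6 lay within 1 SD of no difference, and the exceptions were those of Crat and the second one of Pdha1. Acss2 was the 1 member at least 2-fold higher in NKR-P1B+ cells, where 1.78% of all measured genes were, and none was so in Ly49s3+ cells, where 1.21% were. At 1.5-fold, 1 member was higher in NKR-P1B+ cells and 0 in Ly49s3+ cells, against 5.11% and 5.73% of all measured genes. Nothing is read from these shares, since the same contrast chose Acss2.

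The direction of small differences depended on how the arrays were scaled. On the deposited scale 162 genes were at least 2-fold higher in NKR-P1B+ cells and 110 in Ly49s3+ cells, and with the arrays scaled to 17 poly-A spike probe sets these counts were 648 and 31. Under that scaling all 7 members were higher in NKR-P1B+ cells, 6 of them by at least 1.5-fold, as were 3480 genes in all. The median over all genes was then 0.50, so nothing is read from this count of members. Relative to that median of all genes Acss2 stood at 2.92, Crat at 0.38, Aacs at 0.22, Acss1 at 0.15, Acat1 at 0.13, Pdha1 at 0.09 and Acly at −0.07. This scaling adds 1 constant to every log2 difference above the floor, so the order of the members is that of the deposited scale.

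**Figure D2:**
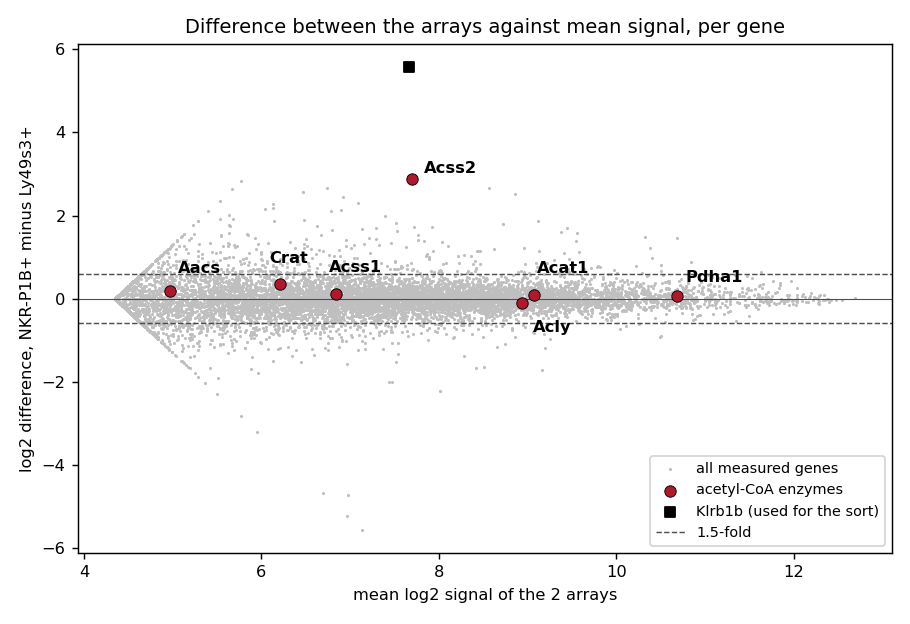
Log2 difference, NKR-P1B+ minus Ly49s3+, against the mean log2 signal of both arrays, 1 point per measured gene (9114, grey), with the 7 acetyl-CoA enzymes in red, Klrb1b as a black square and dashed lines at 1.5-fold. Acss2, at 2.89, lies apart from the other 6 members, which lie between −0.10 and 0.34.

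The 5 genes above the floor on both arrays whose log2 difference was closest to that of Acss2 were Cd93, Olfm1, Lpar1, Tnfrsf25 and Ankrd6. The likeness is a gap in log2 difference over 2 arrays and says nothing of shared control. Cd93, which encodes a membrane glycoprotein, had 958 in NKR-P1B+ cells and 150.3 in Ly49s3+ cells (gap 0.22), but 0.15 on the log2 scale was found with its other probe set. Tnfrsf25, which encodes a death domain receptor, had 1108 in NKR-P1B+ cells and 193.5 in Ly49s3+ cells (gap 0.37). Lpar1, which encodes a receptor of lysophosphatidic acid, had 216 and 36.3 in the same order (gap 0.31), with 1.65 on its other probe set. Olfm1, which encodes the secreted protein olfactomedin 1, had 269.9 and 42.5 (gap 0.22), with 0.38 on its other probe set. Ankrd6, which encodes an ankyrin repeat protein, had 283.9 and 51.8 (gap 0.43), and the lowest of its 3 measured probe sets gave 0.53. Tnfrsf25, like Acss2, has 1 probe set, whereas the differences of the other 4 genes varied between probe sets.

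Genes next to Acss2 on chromosome 3 showed no difference of its size. Of the 4 protein-coding genes on either side in the GRCr8 order, 6 of 8 had a probe set, and the log2 differences of the 5 above the floor on both arrays ran from −0.08 to 0.39. The sixth, Ggt7, had 22.2 in NKR-P1B+ cells and 12.4 in Ly49s3+ cells, below the floor, and its log2 difference was at least 0.12, or 0.84 with the floor at the 35th percentile. Gss, the adjoining gene, which encodes glutathione synthetase, had 60.3 in NKR-P1B+ cells and 50.3 in Ly49s3+ cells. Trpc4ap had 485 in NKR-P1B+ cells and 369 in Ly49s3+ cells, and Ncoa6 had 160.5 and 130.1. Acss1 and Crat lie on the same chromosome as Acss2, with the values given above.

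Of 15 genes of the pyruvate dehydrogenase complex, its kinases and phosphatases and the mitochondrial pyruvate carrier, 11 were measured with a median of −0.07, and the 10 above the floor on both arrays were within 1.5-fold. Nothing is read from such counts, here or in the lists below, as 89.2% of all 9114 measured genes were within 1.5-fold. The kinase gene Pdk4 had 11.3, below the floor, in NKR-P1B+ cells and 28.4 in Ly49s3+ cells, at least 1.39-fold higher in Ly49s3+ cells, and is given for its bound. Pdhb, the partner subunit of Pdha1, had 625 in NKR-P1B+ cells and 735.5 in Ly49s3+ cells. Dld, the shared dihydrolipoyl dehydrogenase, had 399.5 in NKR-P1B+ cells and 378 in Ly49s3+ cells. Pdhx, which binds that enzyme to the complex, had 85.1 in NKR-P1B+ cells and 76.7 in Ly49s3+ cells, and was named after its values were seen.

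Genes of the citrate route that feeds Acly had a median of −0.11 over 10 measured members, 2 of which were at least 1.5-fold higher in Ly49s3+ cells. They were the malic enzyme gene Me2, at 61.8 in NKR-P1B+ cells against 94.9 (1.54-fold), and the dicarboxylate carrier gene Slc25a10, at 20.2 against 39.5 (at least 1.94-fold, since 20.2 is below the floor). The other probe set of Slc25a10 gave a log2 difference of −0.14. Slc25a1, the citrate carrier itself, had 312 in NKR-P1B+ cells and 391.5 in Ly49s3+ cells, a log2 difference of −0.33, and was named after its values were seen. None of the 10 was at least 1.5-fold higher in Ly49s3+ cells with the poly-A scaling, where the median was 0.42 and Me2 stood at −0.09, nor with log2 of the value plus 32. That count was 1 with the 65th percentile floor and 1 with the mean or the dimmest of a gene's probe sets.

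On the acetate side, 9 of 11 genes of monocarboxylate transport and acyl-CoA hydrolysis were measured, with a median of 0.14. Emb was the gene shown to be at least 1.5-fold apart, at 2717 in NKR-P1B+ cells and 994 in Ly49s3+ cells (2.73-fold). It encodes embigin, a membrane partner of monocarboxylate transporters. The transporter gene Slc16a1 had 259.8 in NKR-P1B+ cells and 218 in Ly49s3+ cells, and the other partner gene, Bsg, had 377 and 343 in the same order, both named after their values were seen. Of the genes that lead from alcohol and aldehydes to acetate, 5 of 8 were measured. Aldh2, the mitochondrial aldehyde dehydrogenase, had 57.5 in NKR-P1B+ cells and 18.2 in Ly49s3+ cells, below the floor, so at least 2.82-fold higher in NKR-P1B+ cells. That bound is set by the floor, and with the 65th percentile floor the log2 difference was 0.12 and no gene of the list passed 1.5-fold. The other 4 lay within 1.5-fold, and the list median was 0.02. Emb and Aldh2 have 1 probe set each.

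Of 16 other acyl-CoA synthetase genes, 9 were measured with a median of 0.12, and the 8 above the floor on both arrays lay within 1.5-fold. Acsl3 had 17.0, below the floor, in NKR-P1B+ cells and 25.5 in Ly49s3+ cells, a bound of at least 1.25-fold. Acsl5 and Acsl1, which activate long-chain fatty acids, had 631 and 443 in NKR-P1B+ cells against 679 and 561 in Ly49s3+ cells. Acss3, a further short-chain synthetase, was below the floor on both arrays. All 16 measured genes of the carnitine shuttle and beta oxidation were within 1.5-fold as well, where 89.2% of all measured genes were, with a median of −0.05. Among them Hadhb had 691 in NKR-P1B+ cells and 839 in Ly49s3+ cells, and Acadm had 623 and 489.5 in the same order. Of ketone body genes 3 were measured, all within 1.5-fold. Oxct1, which activates acetoacetate in mitochondria, had 596.5 in NKR-P1B+ cells and 573 in Ly49s3+ cells, and the cytosolic thiolase gene Acat2 had 205.5 and 253 in the same order. For 13 measured genes of branched-chain and lysine breakdown the median was −0.04, and the 12 above the floor on both arrays lay within 1.5-fold. Among these Hsd17b10 had 685 and 651 and Auh 341 and 439 in the same order, whereas Bcat1 had 21.1 and, below the floor, 12.8, which gives only a bound.

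Sterol and fatty acid synthesis consume cytosolic acetyl-CoA. All 15 measured sterol synthesis genes of 20 listed were lower in NKR-P1B+ cells on the deposited scale, with a median of −0.25, whereas with the arrays scaled to their poly-A spikes 12 of them were higher and the median was 0.28. Under that scaling 14 of 15 still lay below the median of all genes. Sqle, which encodes squalene epoxidase, was the only gene of the list shown to be at least 1.5-fold apart, at 27.5 in NKR-P1B+ cells against 46.5 (1.69-fold). Sqle was short of 1.5-fold with the poly-A scaling and with log2 of the value plus 32, and was not measured with the 65th percentile floor. Mvd, at 17.3 and 25.3, gives only a bound of at least 1.24-fold. Fatty acid synthesis genes had a median of −0.24 over 11 measured members, 8 of them lower in NKR-P1B+ cells, and a median of 0.29 under the poly-A scaling, below that of all genes there. Fasn, the fatty acid synthase gene, had 248.8 in NKR-P1B+ cells and 385 in Ly49s3+ cells (1.55-fold), with log2 differences of −0.63 and −1.04 over its probe sets. The desaturase gene Scd had 23.1 in NKR-P1B+ cells and 35.7 in Ly49s3+ cells. Neither was 1.5-fold apart with the poly-A scaling or with log2 of the value plus 32. Scd was also short of 1.5-fold with quantile normalisation (log2 difference −0.53) and with a loess trend subtracted (−0.57), and was not measured with the 65th percentile floor. Acaca, the carboxylase that commits acetyl-CoA to this route, had 157 in NKR-P1B+ cells and 185 in Ly49s3+ cells, and Elovl5 had 3469 and 2823 in the same order, both named after their values were seen.

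Acss2, Acly and many sterol and fatty acid synthesis genes are known targets of the SREBP transcription factors. Of 17 genes that control SREBP, LXR or ChREBP activity, 12 were measured with a median of 0.04, and the 11 above the floor on both arrays lay within 1.5-fold. The other, Mlxipl, which encodes ChREBP, had 21.1 in NKR-P1B+ cells and 17.0, below the floor, in Ly49s3+ cells. Mbtps1 and Mbtps2, the proteases that release SREBP, had 356 and 299 in NKR-P1B+ cells against 350.5 and 376.5 in Ly49s3+ cells. The SREBP genes had opposite signs on the deposited scale, and were named after their values were seen. Srebf1 had 139.5 in NKR-P1B+ cells and 113 in Ly49s3+ cells (log2 difference 0.30), and Srebf2 had 188 and 259 in the same order (log2 difference −0.46, and 0.07 under the poly-A scaling).

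Enzymes that use acetyl-CoA to acetylate lysines had a median of 0.08 over 12 measured members, none of them 1.5-fold apart. Of all measured genes 89.2% were within 1.5-fold. Hat1 had 1017 in NKR-P1B+ cells and 989 in Ly49s3+ cells, Kat2b had 797 and 606.5, and Ep300, named after its values were seen, had 572 and 502. Deacetylase genes, whose products release acetate or acetyl-ADP-ribose, had a median of −0.14 over 14 measured members. Hdac7, a class II deacetylase gene, was 1.88-fold higher in Ly49s3+ cells, at 95.0 in NKR-P1B+ cells against 178.8 there. The other 13 were within 1.5-fold. With the poly-A scaling Hdac7 stood at −0.38, short of 1.5-fold, and the median of the list was 0.40.

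**Figure D3:**
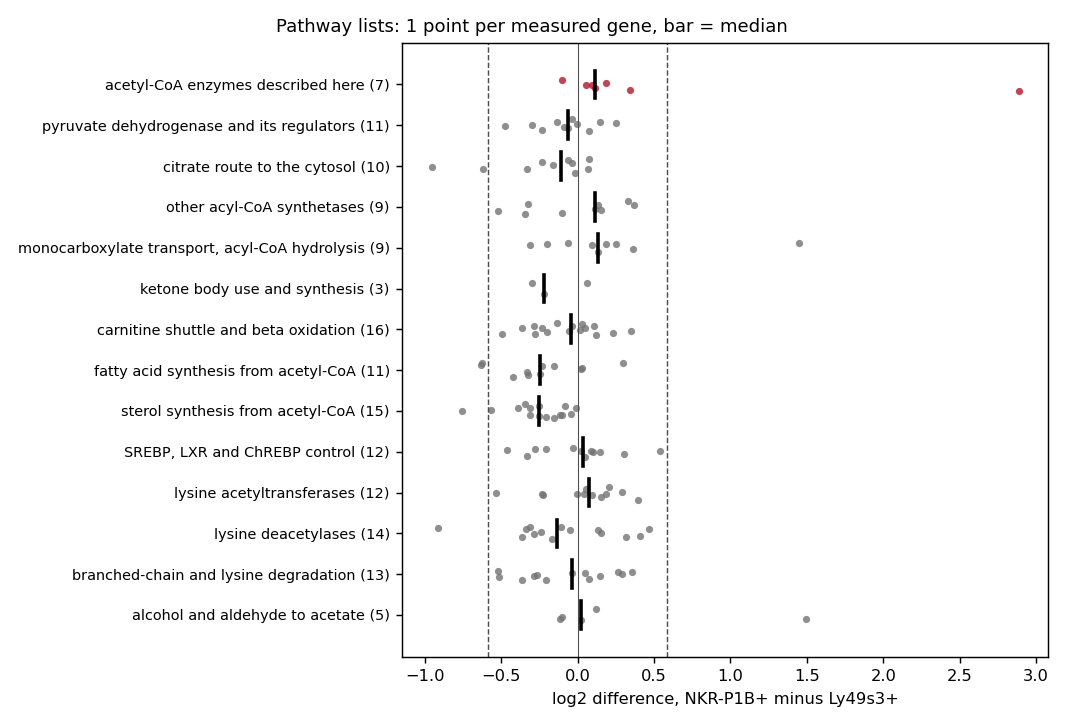
Log2 difference, NKR-P1B+ minus Ly49s3+, of every measured gene of the acetyl-CoA enzymes (red) and of 13 pathway lists (grey), with black bars at the medians, numbers measured in brackets and dashed lines at 1.5-fold. On the deposited scale Acss2 (log2 difference 2.89), Aldh2 (at least 1.495) and Emb (1.45) lie to the right of 1.5-fold. Slc25a10 (a bound), Hdac7, Sqle, Fasn, Scd and Me2 lie to the left of 1.5-fold on the deposited scale. All 15 sterol synthesis genes lie below 0 on that scale, of which 12 lie above 0 with poly-A scaling.

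The sorted cells were checked against markers. All 10 NK marker genes on the array were measured, with summed signals of 22650 in NKR-P1B+ cells and 19830 in Ly49s3+ cells, and Prf1, the perforin gene, had 4023.5 and 3006 in the same order. Klrb1a, which encodes the NKR-P1A carried by all sorted cells, had 3740 and 3813. Of 11 macrophage markers on the array 10 were below the floor on both arrays, Cd68, Csf1r and Adgre1 among them. The exception was Lyz2, at 356 in NKR-P1B+ cells and 133 in Ly49s3+ cells, and the summed signals of the list were 418 and 213. Of 7 B cell markers 2 were measured, Cd22 at 103 in NKR-P1B+ cells against 52.9 and Blnk at 26.1 against 0.9. The latter is below the floor, so Blnk was at least 1.28-fold higher in NKR-P1B+ cells. The summed signals of the B cell list were 167 and 89.3. Of 10 T cell markers, which rat NK cells share in part, 7 were measured, with sums of 2674 and 1473, most of it Cd8a at 2151 and 767, with Cd6 at 273 and 179. Cd5, whose product was a target of the depletion, had 92.7 in NKR-P1B+ cells and 40.8 in Ly49s3+ cells. Of these 7, 3 were higher in NKR-P1B+ cells and 4 in Ly49s3+ cells, such as Trat1 at 86.2 in NKR-P1B+ cells and 346 in Ly49s3+ cells and Cd3g at 22.3 and 42.9. The T cell genes Cd3d and Cd3e lay under the floor on each array. Of 8 antigen-presenting cell markers 5 were measured, with sums of 2877 and 2073, among them Itgax at 2281 and 1716 and the MHC class II gene RT1-Da at 346 and 97.7. In the other direction Batf3 had 4.2, below the floor, in NKR-P1B+ cells and 83.2 in Ly49s3+ cells, and RT1-Ba had 30.2 and 36.7. The sums of these 4 lists, though not each of their genes, were higher on the same array as Acss2. Most of each sum came from 1 gene, which was Lyz2, Cd22, Cd8a or Itgax. Without Lyz2 the macrophage list, and without Cd8a the T cell list, summed higher in Ly49s3+ cells. The part of these lists in the Acss2 signal was not tested.

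The sums of the remaining marker lists did not all run the same way as Acss2. Neutrophil and mast cell markers summed to 86.4 in NKR-P1B+ cells and 189 in Ly49s3+ cells, with 6 of 8 below the floor on both, Mcpt10 at 51.5 and 147.6 and Cpa3 below the floor and at 21.0. Erythroid markers summed to 371 and 345, with Hbb at 276 and 153 and Hemgn at 50.6 and 131. Platelet markers summed to 76.2 and 81.0, with Pf4 at 30.9 and 26.6 and Treml1 at 15.9, below the floor, and 30.4. Stromal markers summed to 63.8 and 58.2, with Vwf at 23.9 and 30.9. Signals of the actin controls were 11.9-fold higher at the 3′ than at the 5′ end in NKR-P1B+ cells and 13.2-fold in Ly49s3+ cells. For the Gapdh controls these ratios were 2.84 and 2.77 in the same order. The effect of this on other probe sets was not tested.

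**Figure D4:**
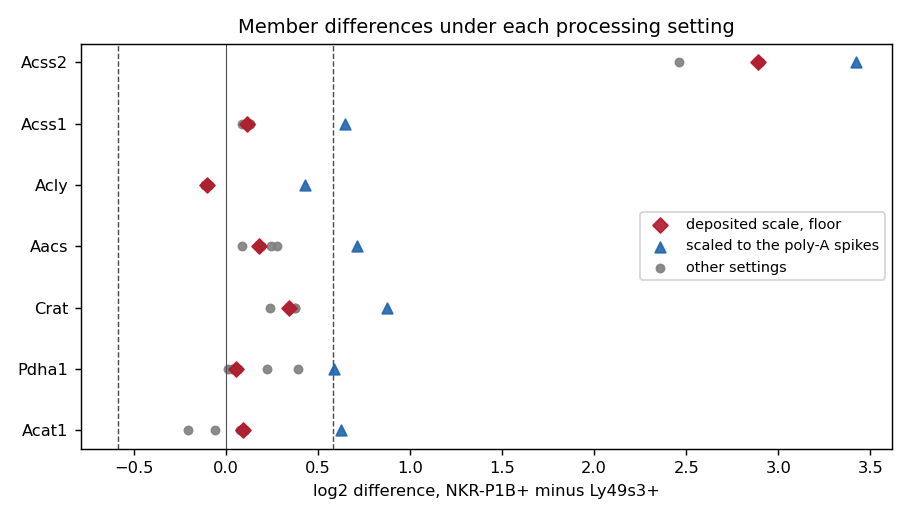
Log2 difference, NKR-P1B+ minus Ly49s3+, of each member on the deposited scale (red diamonds), with the arrays scaled to the poly-A spikes (blue triangles) and under the other settings (grey), with dashed lines at 1.5-fold. Acss2 stays between 2.46 and 3.42, while the other members stay between −0.21 and 0.39 except under the poly-A scaling, where they lie between 0.43 and 0.87.

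Acss2 had the largest difference of the members under every setting tried. Its log2 difference was between 2.46, with log2 of the signal plus 32 in place of the floor, and 3.42, with the poly-A scaling. Among the other members the highest difference under any setting was 0.87, for Crat with the poly-A scaling. Acly changed sign with the poly-A scaling, and Acat1 where its dimmer probe set or the mean of its probe sets represented it.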

How the data were processed

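The authors deposited 1 linear intensity for each probe set and array, and used MAS5 for it, per the submitters' processing notes. Which MAS5 version and scaling target they used is not stated in the sources at hand. Both arrays had a mean of 100.04 after 2% was trimmed at each end, so the scale is common to both and the genes are not centred. The direction of a difference is that on this scale, and some small differences changed sign with the poly-A scaling. Any further scaling stays unknown. The median was 19.6 for NKR-P1B+ cells and 21.3 for Ly49s3+ cells. The number of arrays limits the precision.

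Gene symbols came from the platform annotation, in which 20832 carried 1 symbol, 436 several and 9831 none listed. Signals below 20.4, the 50th percentile over both arrays without controls, were set to it before log2. A gene was represented by its brightest probe set (mean log2 signal), and 9114 of 14217 genes were above the floor on at least 1 array. The difference is NKR-P1B+ minus Ly49s3+. Where 1 array was below the floor the fold is a bound, written "at least".

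The members, lists and settings were chosen with earlier results of these data known. The text names every member probe set, the list genes at least 1.5-fold apart or else the 2 brightest of a list, the 2 brightest of each marker list and the 5 genes closest to Acss2. Neighbours of Acss2, genes with only a bound, and the markers Cd5, Trat1, Cd3g, Batf3 and RT1-Ba were added after the data were seen, and other genes are marked where named. Alternatives were centring, quantile normalisation, a loess trend (span 0.3), poly-A spike scaling, floors at the 35th and 65th percentiles, log2 of the value plus 32, and other probe sets for a gene. Computation used Python 3.11.15, pandas 2.3.3 and statsmodels 0.14.6, and the calculation was tested on simulated data. RefSeq promoters (GRCr8) were found for 7 of 8 members, and protein sequences were not used here.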

Additional observations from a re-analysis of the deposited data

How the results depend on the processing

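No value here has a replicate, so moves were judged against the spread between probe sets of 1 gene. Acss2 moved beyond it under the poly-A scaling (log2 difference 3.42) and with log2 of the value plus 32 (2.46), and kept its direction in all 9 alternatives. The members' median was 0.65 with the poly-A scaling, against 0.50 over all genes there, and between 0.09 and 0.18 otherwise. With the poly-A scaling 6 members were higher in NKR-P1B+ cells by 1.5-fold or more, as were 3480 genes in all. Genes higher by 2-fold or more in NKR-P1B+ cells and in Ly49s3+ cells numbered 648 and 31 with poly-A scaling, 274 and 298 with a 35th percentile floor, 86 and 43 with a 65th percentile floor, and 77 and 37 with log2 of the value plus 32. At 1.5-fold these counts were 3480 and 94, 772 and 1097, 277 and 246, and 276 and 227 in the same order of settings. Floors change how many genes are measured and how far low signals can lie apart, and the cause of the other shifts was not tested. Aacs was not measured with the higher floor. Of 780 further values of named genes and lists under the alternatives, 130 moved, 83 of them with the poly-A scaling. No paired analysis was possible because each population has 1 array.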
